A study of Homo sapiens with 36 samples.

Results

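The genes described here are 53 genes of DNA replication and S phase, out of 60662 gene IDs in the deposited count table. They were chosen by gene symbol for their textbook roles: origin licensing, the MCM helicase, helicase activation and the fork scaffold, polymerases and primase, the sliding clamp with its loader and lagging-strand enzymes, the RPA complex, nucleotide supply, chromatin assembly, and the E2F factors with cyclin E and other S phase regulators. The choice was made with earlier results of these data known. All 53 were found in the table and all 53 passed the filter on low counts. RNA was measured by poly(A), non-stranded sequencing in A549, an established human lung adenocarcinoma cell line. Cells carried 100 nM of a non-targeting siRNA (siControl), an siRNA against ATF4 (siATF4) or an siRNA against ATF6 (siATF6), and were then kept in medium with 25 mM or 0 mM glucose for 6 h or 16 h, with 3 libraries in each of the 12 groups. Every group also shared dialysed serum and added glutamine, and transfected cultures were split over a pair of wells before treatment. ATF4 and ATF6 are transcription factors of the integrated and endoplasmic reticulum stress responses. The libraries are labelled biological replicates of 1 cell line, so the p-values measure the spread between cultures of that line.

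A cell copies its genome in steps. In G1 the origin recognition complex with CDC6 and CDT1 loads rings of MCM2 to MCM7 onto origins. At the start of S phase CDC45, the GINS complex and MCM10 turn these rings into active helicases. Polymerases alpha, delta and epsilon then copy the strands, and the PCNA clamp holds delta and epsilon on DNA. E2F factors, released from pocket proteins when cyclin-dependent kinases act, drive transcription of many of these genes, so that their mRNAs are abundant in dividing cells and scarce in resting ones. Proliferating tumour lines such as A549 express the set as a whole.

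The 35 libraries used held 39389295 to 78738823 counts. The remaining library (siATF4, 0 mM, 6 h, replicate 3) held 2867609 counts and correlated with no other library above 0.160, against medians of 0.948 or more among the others, and was left out of every fit unless said. In these 35 libraries the epithelial keratins KRT7, KRT8 and KRT18 stood at 1418 to 9446 CPM (counts scaled to library size), KRT19 at 97.0 to 259.7, and the epithelial adhesion genes CDH1 and EPCAM at 7.73 to 36.7 and 1.88 to 7.64 CPM. CDKN2A, which A549 lacks, and the T cell marker CD3E were at 0 CPM, and the blood and endothelial markers PTPRC, LYZ, PECAM1 and VWF were at 0.201 CPM or less. Other markers of non-epithelial cells reached higher levels: CD14 0.576 to 8.02, CDH5 up to 1.77, COL1A1 2.68 to 39.0 and ACTA2 3.95 to 12.7 CPM. At 16 h ATF6 was lower under siATF6 than under siControl by log2 fold changes of -2.36 in 25 mM and -2.58 in 0 mM (edgeR adjusted p = 1.79e-05 and 4.85e-06). ATF4 was lower under siATF4 in 0 mM (-1.29, edgeR adjusted p = 0.000186), while in 25 mM it measured 130 ± 10.5 against 157 ± 19.5 CPM (SD, n = 3; -0.28, edgeR adjusted p = 0.759), so the siATF4 label has no check from its target in 25 mM at 16 h. At 6 h ATF4 did not pass under siATF4 either, with log2 fold changes of -1.15 in 25 mM and -1.11 in 0 mM (edgeR adjusted p = 0.125 and 0.252), while ATF6 was lower under siATF6 (-2.3 and -2.17, edgeR adjusted p = 1.39e-05 and 4.55e-05). At 6 h replicate 2 of siControl and of siATF6 ran against the other pairs, as described with the 6 h results. In RNA from whole cultures, fewer cells in S phase and less of each mRNA per cell cannot be told apart.

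After 16 h without glucose nearly the whole set was lower. In siControl cells 47 of the 53 genes fell, none rose, and 6 did not pass an adjusted p of 0.05 (edgeR quasi-likelihood test, adjusted over 18013 genes); 29% of all genes tested passed and 14.5% were lower. The summed level of the 53 genes was 4995, 4893 and 4458 CPM in the 3 siControl libraries with glucose and 1741, 1603 and 1455 CPM in the 3 without. The groups stood far apart. The median log2 fold change was -1.66, against 0.01 over all genes tested. By levels alone, 48 of the 53 genes had every library in 0 mM below every library in 25 mM, against 26.2% of all genes. In each of the 3 replicate pairs 52 of 53 were lower, and the share of all genes for this weaker rule is not given here.

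**Figure D1:**
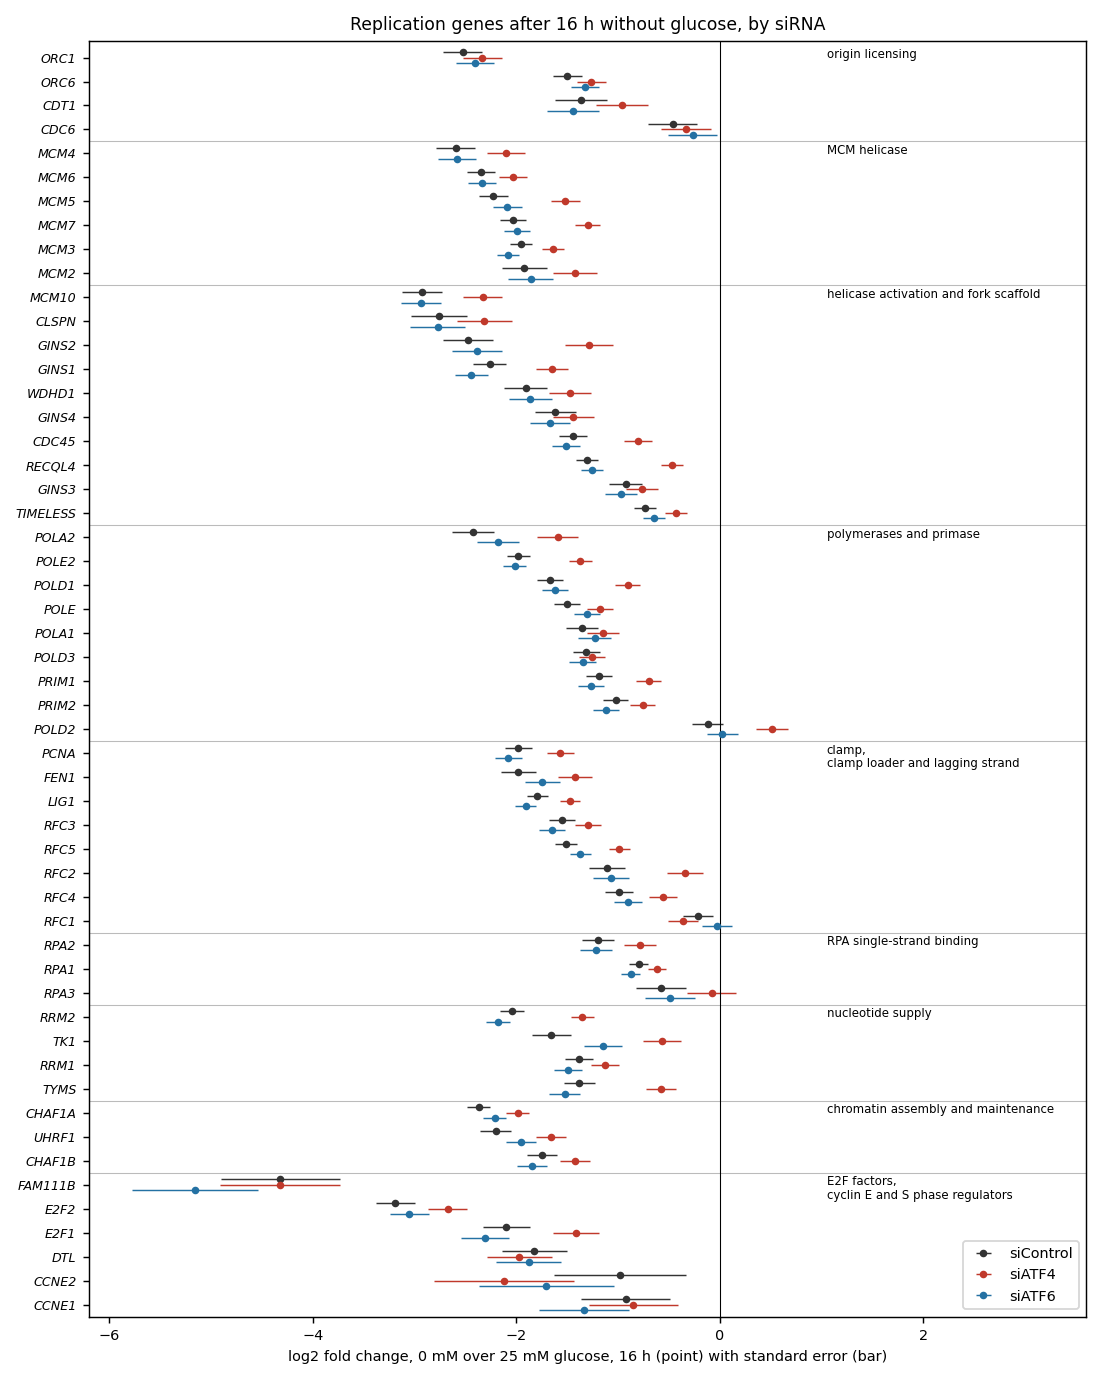
Log2 fold change of 0 mM over 25 mM glucose at 16 h (x axis; points, with standard errors as bars) for the 53 genes grouped by role (y axis), in siControl, siATF4 and siATF6 cells. Nearly all points lie left of 0, from -5.16 for FAM111B under siATF6 to 0.51 for POLD2 under siATF4.

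In siATF4 cells 47 genes fell and 1, POLD2, rose (edgeR; 29.1% of all genes passed, 14.2% lower and 14.9% higher), with a median log2 fold change of -1.29. In siATF6 cells 48 fell and none rose (33.5% of all genes passed, 17.9% lower), with a median of -1.67. With all 36 libraries in 1 fit, the library left out above included, the genes that passed at 16 h numbered 16, 9 and 18 in siControl, siATF4 and siATF6, where 2.83%, 1.73% and 4.44% of all genes passed. Groups did not overlap for 47 and 50 of the 53 genes, against 16.8% and 27.6% of all genes. The summed level went from 4591 ± 293 to 2216 ± 101 CPM under siATF4 and from 5367 ± 371 to 1885 ± 122 CPM under siATF6, against 4782 ± 285 to 1600 ± 143 CPM under siControl (SD, n = 3). The summed level of 12 markers of non-epithelial cells was 34.2 to 34.3 CPM with glucose and 17.1 to 18.8 CPM without it in siControl, 26.5 to 30.7 and 15.5 to 24.1 CPM in siATF4, and 16.5 to 20.5 and 8.05 to 11.3 CPM in siATF6. Mitochondrial transcripts took 2.72 to 5.31% of siControl counts with glucose and 3.08 to 4.13% without. Their part in the result was not tested.

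The promoters of 44 of the 53 genes were matched by symbol in RefSeq's table for GRCh38.p14, as windows of 300 bases from 250 before to 50 after the annotated start. The letters TTTCCCGC, TTTGGCGC, TTTCGCGC and TTTGCCGC, which E2F factors are known to bind, were searched with their reverse complements GCGGGAAA, GCGCCAAA, GCGCGAAA and GCGGCAAA. At least 1 of the 8 words was present for 22 of the 44 genes (50.0%) and for 1090 of all 27305 gene symbols (3.99%). A gene was counted if any window under its symbol held a word. The CCAAT letters, or ATTGG on the other strand, were in 27 of 44 (61.4%) and in 10846 of 27305 (39.7%). Genes with an E2F word had a median log2 fold change of -1.97 in siControl at 16 h, with a range of -3.19 to -0.46, and genes without one had a median of -1.47, with a range of -2.93 to -0.12. The ranges overlap over most of their length. A match is a description of the letters and no match says only that these words are not in the window. The 10 stretches below lie before the RefSeq start that the window uses and are printed to let 5 genes with a word be set beside 5 without, of which MCM10, CHAF1A and TIMELESS fell and RFC1 and POLD2 did not pass the test. The POLD2 stretch lies inside the longer span that the deposited table gives that gene, 44114681 to 44124358 on chromosome 7. Capitals mark the E2F words, which in MCM6 overlap as TTTGGCGC and GCGCGAAA.
E2F2, chr1:23531238-23531305, minus strand: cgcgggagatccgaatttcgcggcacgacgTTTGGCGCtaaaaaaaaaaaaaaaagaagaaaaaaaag
MCM3, chr6:52284882-52284946, minus strand: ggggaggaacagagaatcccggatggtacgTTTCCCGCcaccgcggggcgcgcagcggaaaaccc
MCM6, chr2:135876558-135876625, minus strand: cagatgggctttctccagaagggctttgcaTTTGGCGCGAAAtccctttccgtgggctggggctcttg
PCNA, chr20:5126644-5126711, minus strand: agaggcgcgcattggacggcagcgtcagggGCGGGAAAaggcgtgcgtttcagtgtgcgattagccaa
POLA1, chrX:24693751-24693818, plus strand: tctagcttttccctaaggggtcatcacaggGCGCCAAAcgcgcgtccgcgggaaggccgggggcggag
MCM10, chr10:13161498-13161553, plus strand: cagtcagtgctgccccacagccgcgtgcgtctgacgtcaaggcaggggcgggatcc
CHAF1A, chr19:4402580-4402639, plus strand: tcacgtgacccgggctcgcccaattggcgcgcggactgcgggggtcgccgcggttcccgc
TIMELESS, chr12:56449427-56449486, minus strand: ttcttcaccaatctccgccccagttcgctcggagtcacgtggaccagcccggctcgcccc
RFC1, chr4:39366376-39366422, minus strand: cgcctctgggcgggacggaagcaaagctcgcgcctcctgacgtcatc
POLD2, chr7:44123560-44123608, minus strand: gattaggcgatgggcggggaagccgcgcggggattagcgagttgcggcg

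Among the origin licensing genes, 3 of 4 fell in siControl at 16 h (median log2 fold change -1.43). ORC1, the subunit of the origin recognition complex whose level changes through the cell cycle, measured 39.3, 37.9 and 34.1 CPM with glucose and 7.36, 5.99 and 5.96 CPM without. The groups did not overlap. This was a 5.77-fold decrease (log2 -2.53, SE 0.19, edgeR adjusted p = 1.25e-07), and the same contrast gave -2.34 under siATF4 and -2.41 under siATF6. ORC6, another subunit of the complex, fell by 1.5, and CDT1, the loading factor that geminin restrains, fell by 1.36 on the log2 scale (edgeR adjusted p = 1.2e-06 and 0.000792). CDC6, the ATPase that recruits CDT1 and the MCM rings, behaved differently, with 126, 102 and 92.8 CPM with glucose and 113, 59.9 and 60.6 CPM without. Replicate 1 without glucose lay among the libraries with glucose, and the change of -0.46 (SE 0.24) did not pass the test (edgeR adjusted p = 0.17). Without that library it was -0.83 (edgeR adjusted p = 0.0126). With replicate number as a block shared by all siRNAs it was -0.51 (edgeR adjusted p = 0.00258), and with a block for the transfection -0.52 (edgeR adjusted p = 0.012).

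All 6 subunits of the MCM helicase, the ring that unwinds DNA ahead of the fork, fell in each of the 3 siRNAs. In siControl their median log2 fold change was -2.13, with a range of -1.92 to -2.60. MCM4 measured 331, 310 and 286 CPM with glucose and 60.6, 49.4 and 43.6 CPM without, the strongest change of the 6 (6.05-fold; log2 -2.60, SE 0.19, edgeR adjusted p = 7.87e-08). MCM7 measured 354, 358 and 309 CPM with glucose and 85.0, 92.1 and 73.2 CPM without (log2 -2.03, SE 0.13, edgeR adjusted p = 1.5e-08). For both genes the groups did not overlap. The levels of MCM6 were 146, 147 and 137 CPM against 32.2, 28.1 and 24.3 CPM (log2 -2.35, edgeR adjusted p = 7.95e-09), and those of MCM5 were 150, 164 and 142 CPM against 35.9, 35.2 and 26.5 CPM (log2 -2.23, edgeR adjusted p = 2.09e-08). Those of MCM3 were 166, 164 and 151 CPM against 42.6, 42.0 and 39.6 CPM (log2 -1.95, edgeR adjusted p = 5.09e-09). MCM2 had the widest spread without glucose, with 163, 152 and 129 CPM against 50.3, 34.8 and 32.3 CPM (log2 -1.92, SE 0.22, edgeR adjusted p = 8.75e-06). No library without glucose reached any library with glucose for a single subunit. Under siATF4 the median over the 6 subunits was -1.58, and under siATF6 -2.08.

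**Figure D2:**
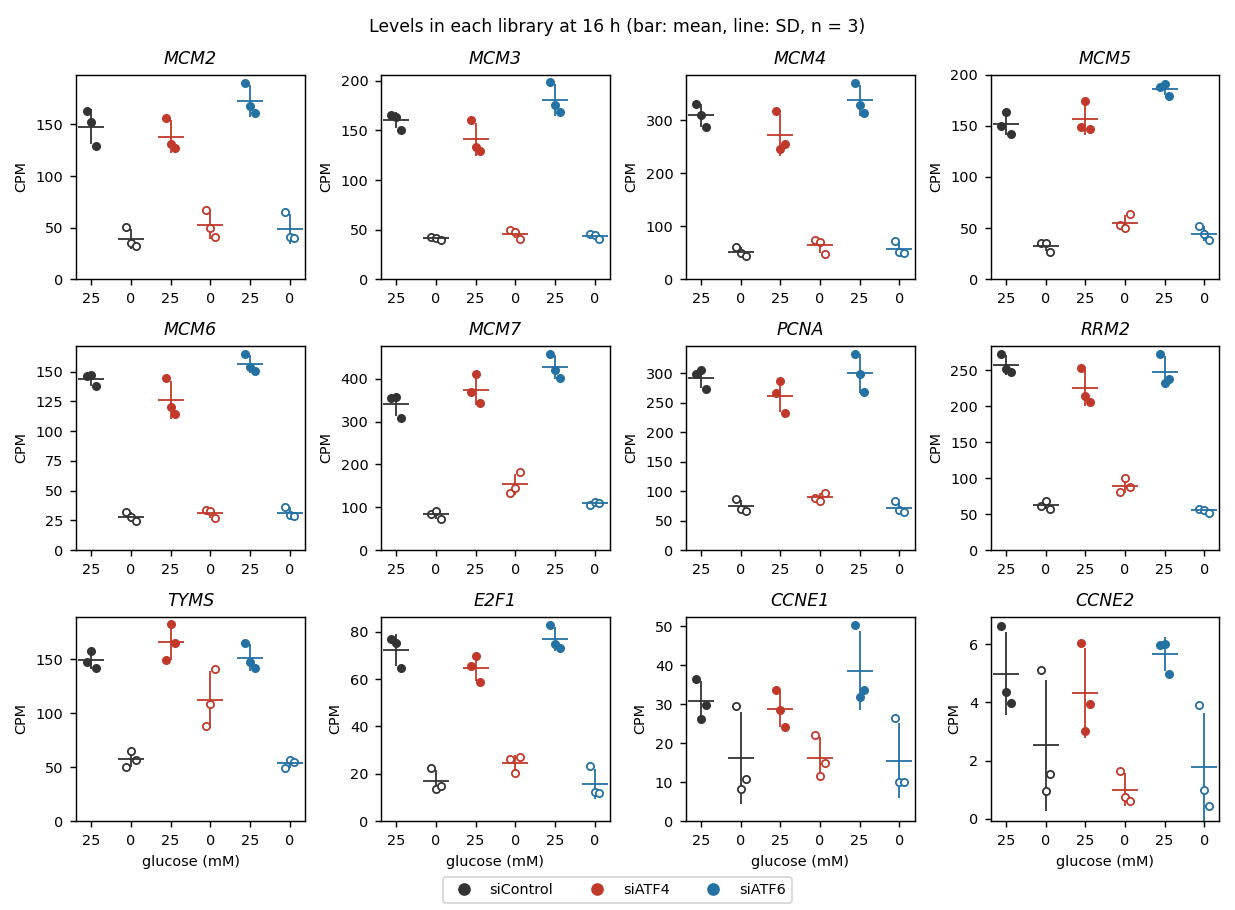
CPM at 16 h (y axis) of MCM2 to MCM7, PCNA, RRM2, TYMS, E2F1, CCNE1 and CCNE2 in each library (points) of the 6 groups (x axis), with mean and SD (n = 3). The 0 mM libraries lie below the 25 mM libraries of the same siRNA except for CCNE1 and CCNE2 under siControl, where replicate 1 without glucose stands at 29.7 and 5.11 CPM.

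All 10 genes of helicase activation and the fork scaffold fell in siControl (median -1.76). MCM10, which helps to convert the loaded rings into moving helicases, measured 64.9, 57.1 and 53.4 CPM with glucose and 8.98, 7.49 and 6.55 CPM without. With no overlap, it was 7.63-fold lower (log2 -2.93, SE 0.20, edgeR adjusted p = 3.24e-08), and its change under siATF6 was also -2.93. CLSPN, the claspin adaptor that carries checkpoint signals from ATR to CHK1 at the fork, fell by 2.76 on the log2 scale. In the GINS complex, which joins CDC45 and the MCM ring, the 4 subunits differed: GINS2 fell by 2.48, GINS1 by 2.26, GINS4 by 1.62 and GINS3 by 0.93. CDC45 itself fell by 1.44, WDHD1, which tethers polymerase alpha to the helicase, by 1.91, and RECQL4, a RecQ helicase needed for origin firing, by 1.30. TIMELESS, a fork protection protein, had the smallest change, with -0.74 (edgeR adjusted p = 9.79e-05).

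Among polymerases and primase 8 of 9 genes fell in siControl (median -1.35), and POLD2 was the exception. POLA2, the second subunit of the polymerase alpha complex that starts each new strand, measured 40.7, 42.2 and 40.6 CPM with glucose and 6.63, 6.80 and 9.57 CPM without. This was a 5.38-fold decrease without overlap (log2 -2.43, SE 0.21, edgeR adjusted p = 4.46e-07). The catalytic subunits POLD1, POLE and POLA1 fell by 1.67, 1.5 and 1.35 on the log2 scale, and the primase subunits PRIM1 and PRIM2, which make the RNA primers, by 1.19 and 1.02. POLE2 and POLD3, accessory subunits of polymerases epsilon and delta, fell by 1.98 and 1.31. POLD2, also an accessory subunit of polymerase delta, measured 135, 137 and 126 CPM with glucose and 118, 129 and 121 CPM without, and the groups overlapped (log2 -0.12, SE 0.15, edgeR adjusted p = 0.612). Under siATF4 it was 121, 166 and 134 CPM with glucose and 178, 161 and 267 CPM without. Replicate 3 without glucose was the highest of these and replicate 2 lay below a library with glucose; POLD2 rose (log2 0.51, edgeR adjusted p = 0.0197), but it did not pass without that replicate 3 (0.26, edgeR adjusted p = 0.0865), nor without siATF4 replicate 1 or 3 with glucose (0.42 and 0.48, edgeR adjusted p = 0.0904 and 0.0707).

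Of the clamp, its loader and the lagging-strand enzymes, 7 of 8 genes fell in siControl (median -1.53). PCNA, the ring that keeps polymerases on DNA, measured 298, 306 and 273 CPM with glucose and 86.5, 70.5 and 65.8 CPM without. It fell without overlap (3.95-fold; log2 -1.98, SE 0.13, edgeR adjusted p = 3.2e-08). FEN1 and LIG1, which trim and join Okazaki fragments, fell by 1.98 and 1.79. In the clamp loader, RFC3, RFC5, RFC2 and RFC4 fell by 1.55, 1.51, 1.11 and 0.99, while RFC1, its large subunit, changed by -0.22 and did not pass (edgeR adjusted p = 0.308). RFC1 did not pass under siATF4 (-0.36) or siATF6 (-0.03) either. RFC2 changed by -0.34 under siATF4 (edgeR adjusted p = 0.158), or by -0.62 without replicate 3 without glucose (edgeR adjusted p = 0.00377). In the RPA complex, which covers single-stranded DNA, RPA2 measured 50.2, 48.9 and 43.3 CPM with glucose and 25.5, 19.2 and 17.6 CPM without, with no overlap. RPA2 fell by 1.20 (SE 0.16, edgeR adjusted p = 3.95e-05) and RPA1 by 0.80, and RPA3 changed by -0.58 (edgeR adjusted p = 0.0889).

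All 4 genes of nucleotide supply fell in siControl (median -1.52). RRM2, the small subunit of ribonucleotide reductase, measured 274, 252 and 248 CPM with glucose and 61.8, 68.7 and 58.0 CPM without. The decrease was 4.11-fold, with no overlap (log2 -2.04, SE 0.12, edgeR adjusted p = 5.59e-09). The large subunit RRM1 fell by 1.38. TYMS, thymidylate synthase, measured 148, 157 and 142 CPM with glucose and 50.3, 64.6 and 56.9 CPM without (log2 -1.38, SE 0.15, edgeR adjusted p = 5.13e-06). TK1, the salvage enzyme thymidine kinase, fell by 1.66 in siControl, by 1.15 in siATF6 and by 0.57 in siATF4. Under siATF4 the levels of TK1 were 179, 253 and 180 CPM with glucose and 116, 114 and 187 CPM without, so that replicate 3 without glucose lay above 2 libraries with glucose (edgeR adjusted p = 0.0332). The decrease did not pass without siATF4 replicate 2 with glucose (-0.39, edgeR adjusted p = 0.145) or without replicate 1 or 2 without glucose (-0.45 and -0.44, edgeR adjusted p = 0.119 and 0.106).

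All 3 genes of chromatin assembly and maintenance fell in siControl (median -2.20). CHAF1A, the large subunit of the CAF-1 histone chaperone, measured 58.5, 53 and 49.6 CPM with glucose and 10.8, 10.1 and 10.3 CPM without. Its libraries without glucose were nearly alike, and its 5.17-fold decrease (log2 -2.37, SE 0.12) had an edgeR adjusted p of 1.65e-09. UHRF1, which guides maintenance DNA methylation behind the fork, fell by 2.20, and CHAF1B, the middle subunit of CAF-1, by 1.75.

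The E2F factors and S phase regulators held both the strongest and some of the most variable changes, and 4 of 6 fell in siControl. FAM111B, a protease whose mRNA is known to peak in S phase, measured 29.3, 22.5 and 22 CPM with glucose and 2.62, 0.585 and 0.463 CPM without. It was 19.96-fold lower without overlap (log2 -4.32, SE 0.59, edgeR adjusted p = 4.61e-05). E2F2, an activator E2F, measured 20.4, 18.9 and 18.5 CPM with glucose and 2.17, 1.78 and 2.41 CPM without (9.12-fold; log2 -3.19, SE 0.19, edgeR adjusted p = 1.16e-08). E2F1, the first activator E2F described, measured 76.8, 75.2 and 64.7 CPM with glucose and 22.3, 13.4 and 15 CPM without (log2 -2.10, SE 0.23, edgeR adjusted p = 6.01e-06). Neither E2F overlapped between the groups. DTL, the ubiquitin ligase adaptor that removes CDT1 in S phase, fell by 1.82 (edgeR adjusted p = 0.000423).

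The cyclins E, which activate CDK2 at entry into S phase, did not pass in siControl, and their libraries without glucose were far apart. CCNE1 measured 36.5, 26.2 and 29.7 CPM with glucose and 29.7, 8.23 and 10.8 CPM without (log2 -0.93, SE 0.44, edgeR adjusted p = 0.128). CCNE2 measured 6.62, 4.37 and 4.00 CPM with glucose and 5.11, 0.948 and 1.53 CPM without (log2 -0.98, SE 0.65, edgeR adjusted p = 0.285). In both, replicate 1 without glucose was the library within the range of the group with glucose. Without it the changes were -1.70 and -2.02 (edgeR adjusted p = 0.00684 and 0.0456), and with the replicate block -1.10 and -1.22 (edgeR adjusted p = 0.00261 and 0.0315). With the transfection block CCNE1 passed (-1.14, edgeR adjusted p = 0.00961) and CCNE2 did not. Under siATF6, CCNE1 measured 50.2, 31.9 and 33.6 CPM with glucose and 26.6, 10.1 and 10.0 CPM without, and fell by 1.34 (edgeR adjusted p = 0.0282), though not past the threshold without siATF6 replicate 1 with glucose, or replicate 2 or 3 without it (-1.10 to -1.11, edgeR adjusted p = 0.105 to 0.113). Under siATF4, CCNE2 fell by 2.12 (edgeR adjusted p = 0.0301), with adjusted p from 0.0563 to 0.108 when siATF4 replicate 1 or 3 with glucose, or replicate 2 or 3 without, was left out. Under siATF6 the change of CCNE2 was -1.70 (edgeR adjusted p = 0.0601). It passed with the replicate block (-2.09, edgeR adjusted p = 0.00132) and with the transfection block (-2.16, edgeR adjusted p = 0.00824). It also passed without replicate 1 without glucose (-2.99, edgeR adjusted p = 0.00353). Among the 3 libraries without glucose, replicate 1 was the highest under each siRNA for both cyclins.

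Per unit of transcript length, in TPM (counts scaled by effective length and library size), the order of the genes also changed in siControl at 16 h. PCNA had the highest level with glucose, at 383 ± 29.4 TPM (SD, n = 3), and came second without it, at 88.2 ± 12.4 TPM. POLD2 came seventh with glucose, at 144 ± 9.80 TPM, and first without, at 121 ± 4.14 TPM. RRM2, MCM7, TK1 and MCM4 followed PCNA with glucose, with means of 236, 212, 201 and 174 TPM, and from RRM2 to MCM4 the libraries of each gene overlapped with those of the next. MCM4 stood at 26.1 TPM without glucose, in place 12. At the low end E2F2 went from 5.35 to 0.535 TPM and FAM111B from 10.5 to 0.468 TPM.

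The counting did not use strand, so reads in exons shared with another gene cannot be assigned by strand. Of the 53 genes, 23 share some exon sequence with another gene and 8 share 10% or more. TYMS shares 39.1% of its exon bases with ENOSF1 on the other strand, which measured 33.3 CPM with glucose and 49.8 CPM without in siControl at 16 h. CCNE2 shares 37.0% with INTS8, also on the other strand, at 55.7 and 35.9 CPM, so the values of TYMS and CCNE2 are uncertain by what the counting assigned between partners. POLA2 and RRM2 share 35.1% and 20.2% with genes that had no counts.

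Across the 18 libraries of 16 h, most of the genes moved as 1 group. MCM10 had the highest Pearson correlation with the mean of the other members, 0.996, and POLD2 (-0.183), RFC1 (0.438), RPA3 (0.563) and CDC6 (0.613) had the lowest. These 18 libraries share the same glucose contrast, and its part in these correlations was not tested. Outside the 53 genes, those most like the members' mean over the same 18 libraries were ASF1B (0.996) and EXO1, DSCC1 and MMP15 (0.991 each). ASF1B is a histone chaperone, EXO1 a nuclease, DSCC1 a subunit of an alternative clamp loader and MMP15 a membrane metalloproteinase.

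Other genes of the pathway were lower in part, set against 14.5% of all genes lower in siControl at 16 h. In that comparison 29% of all genes passed in either direction. The genes that rose are named as a description, and their counts were not set against the share of all genes higher. Of 33 further replication genes 23 fell in siControl at 16 h and 2, TOP1 (0.76) and ASF1A (0.39), rose (edgeR; median log2 fold change -0.63). The strongest decreases were those of ASF1B (-2.84), ATAD5 (-1.79), DSCC1 (-1.69), DNA2 (-1.69) and GMNN, the CDT1 inhibitor geminin (-1.60). Of 20 further genes of nucleotide supply 10 fell, among them DUT (-1.01) and SHMT1 (-1.01), and 2 rose, CTPS1 (1.17) and TK2 (0.24). Of 16 checkpoint genes 11 fell, led by the phosphatase CDC25A (-2.14), and RAD17 rose (0.69). Of 17 genes of the E2F and pocket protein families 7 fell, led by E2F8 (-2.52) and MYBL2 (-2.06), and LIN37 (0.64) and E2F6 (0.34) rose. Among 13 G1 regulators that could be tested, of 16 on a list of cyclins, CDKs, CDK inhibitors, the ubiquitin ligase subunits SKP2 and FBXW7 and the transcription factor MYC, CDK2 (-1.83), SKP2 (-1.89), CDKN2C (-1.98), CCND3 (-1.75) and CCND1 (-0.69) fell, and CDKN1A, the p21 inhibitor of cyclin-dependent kinases (1.12), CDKN1B (0.51) and MYC (0.37) rose. Of 25 genes of G2 and mitosis 23 fell (median -1.13), MKI67 by 1.85 and CCNA2 by 1.73.

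The comparison of siRNAs asks whether silencing ATF4 or ATF6 changes these genes. In 25 mM glucose at 16 h no member passed edgeR's test under siATF4 (0.0444% of all genes passed; 2 members at an unadjusted p under 0.05, both lower, against 3.32% of all genes) or under siATF6 (0.749% passed; 8 members at an unadjusted p under 0.05, all higher, against 5.04% of all genes), and the median log2 fold changes were -0.06 and 0.18. DESeq2 also called 0 in both. In 0 mM glucose at 16 h, 17 of the 53 genes were higher under siATF4 than under siControl and none was lower (edgeR; 12.4% of all genes passed and 7.32% were higher), with a median over the 53 of 0.30. The siATF4 and siControl libraries did not overlap for 15 of the 17, and 18 of the 53 were higher without overlap, against 15.3% of all genes. The share of members called exceeds the share of all genes called higher, but the count depended on single libraries: leaving out siControl replicate 3 left 10, with the other libraries in turn 15 to 18, and 9 of the 17 passed whichever library was left out. It was 0 when the test used only the 6 libraries compared, where no gene of the whole table passed (2609 at an unadjusted p under 0.05), and 0 with all 36 libraries, where 0.0747% of all genes passed.

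The genes higher under siATF4 came from several roles. TK1 measured 116, 114 and 187 CPM under siATF4 and 63.5, 60.3 and 43.5 CPM under siControl, both without glucose. The groups did not overlap (log2 1.31, SE 0.19, edgeR adjusted p = 0.00111). GINS2 measured 14.4, 16.9 and 26.9 against 9.69, 8.56 and 5.79 CPM (log2 1.26, SE 0.24, edgeR adjusted p = 0.00569). TYMS measured 88.0, 109 and 141 against 50.3, 64.6 and 56.9 CPM (log2 0.96, edgeR adjusted p = 0.00162), and its overlapping partner ENOSF1 limits this value as above. Neither gene overlapped between the siRNAs. MCM7 (0.87), MCM5 (0.75), RFC2 (0.89), POLD1 (0.72), POLD2 (0.71) and RECQL4 (0.58) were the other genes that passed with each library left out in turn. POLA2 (0.77), GINS1 (0.68), RFC4 (0.59), CDC45 (0.58), PRIM1 (0.58), POLE2 (0.52), RRM2 (0.50) and UHRF1 (0.48) passed with all 18 libraries but not with every library left out. In 14 of the 17 genes, siATF4 replicate 3 was the highest of the 3 siATF4 libraries without glucose. The pair of that library and siATF4 replicate 3 with glucose stood apart. This was seen over 1896 genes that are no members and that changed at least 2-fold in siControl at 16 h. Its log2 ratios correlated at 0.729 with the siControl change, against 0.814 to 0.901 for the other pairs of siATF4 and siATF6 at 16 h. Which library of the pair this comes from was not tested. Without siATF4 replicate 3 without glucose 16 genes passed. Of the other lists, 11 of 33 further replication genes (with ASF1A and TOP1 lower, at -0.52 and -0.60), 7 of 20 of nucleotide supply, led by DTYMK (1.16), 4 of 17 of the E2F and pocket families, led by MYBL2 (1.07), and 6 of 25 of G2 and mitosis, led by CDC20 (1.32), were also higher. Higher too were 2 of 13 G1 regulators (MYC, 0.60, and CCND1, 0.42) and 1 of 16 checkpoint genes (CHEK1, 0.47). These list counts stand against 7.32% of all genes higher, a share that the checkpoint genes did not exceed.

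**Figure D3:**
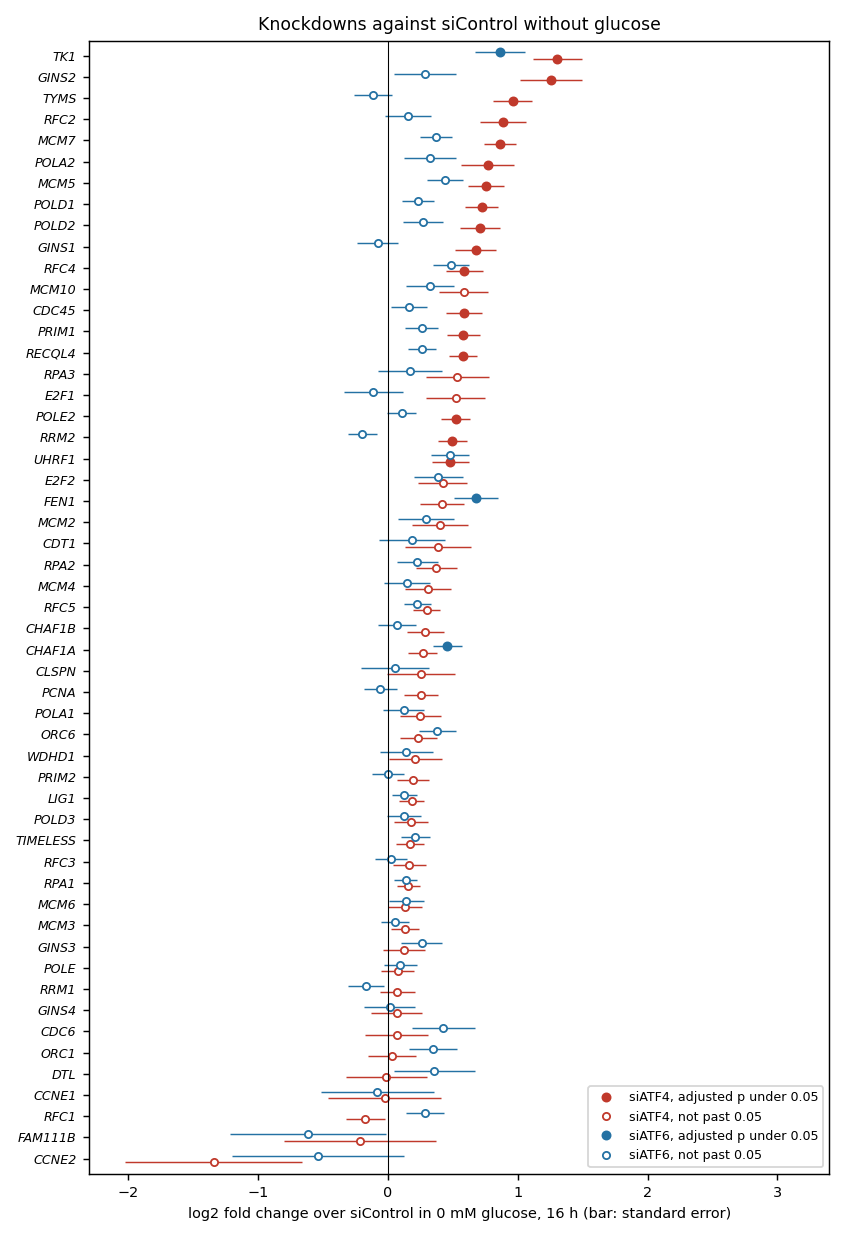
Log2 fold change over siControl in 0 mM glucose at 16 h (x axis; bars are standard errors) for siATF4 and siATF6 in each of the 53 genes (y axis); filled points have an edgeR adjusted p under 0.05. Filled siATF4 points run from 0.48 for UHRF1 to 1.31 for TK1, and 3 siATF6 points are filled.

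Under siATF6 in 0 mM glucose 3 members were higher than in siControl and none lower (edgeR; 4.02% of all genes passed and 1.11% were higher; 10 members at an unadjusted p under 0.05, all higher, against 7.26% of all genes). TK1 measured 103, 102 and 103 CPM (log2 0.86, edgeR adjusted p = 0.0168). FEN1 measured 48.2, 45.4 and 47.5 CPM against 36.4, 26.1 and 24.6 CPM (0.68, edgeR adjusted p = 0.0315), and CHAF1A 15.8, 13.5 and 14.1 CPM against 10.8, 10.1 and 10.3 CPM (0.46, edgeR adjusted p = 0.0299). None of the 3 overlapped with siControl, and 18 of the 53 genes were higher without overlap, against 15.3% of all genes. Leaving out single libraries gave 0 to 4 genes, with 0 left without siControl replicate 3, siATF6 replicate 2 or siATF6 replicate 3, and no gene passed with every library left out in turn. Both siRNAs are set against the same siControl libraries.

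Whether the response to glucose deprivation itself differed between siRNAs was tested as an interaction. Against siControl, the response under siATF4 was less negative for RECQL4 alone (difference 0.83, edgeR adjusted p = 0.0374; 0.172% of all genes passed), with 24 members at an unadjusted p under 0.05, all in that direction, against 4.92% of all genes in that direction. RECQL4 measured 87.8, 90.3 and 88.8 CPM with glucose and 35.5, 35.7 and 37.1 CPM without under siControl, and 68.3, 83.0 and 72.3 against 52.3, 46.9 and 63.9 CPM under siATF4. Under siATF6 it measured 105, 102 and 102 against 44.8, 40.7 and 46.2 CPM. Under siATF4 its libraries were higher than under siControl without glucose and lower with glucose, with no overlap in either. Against siATF6, the response under siATF4 was less negative for RRM2 (0.83, edgeR adjusted p = 0.0307) and RECQL4 (0.79, edgeR adjusted p = 0.0346), with 0.355% of all genes passing. There were 20 members at an unadjusted p under 0.05, all in that direction, against 5.68% of all genes. RRM2 measured 254, 215 and 207 against 80.4, 100 and 87.5 CPM under siATF4, and 273, 232 and 237 against 57.5, 56.6 and 52.3 CPM under siATF6. The median differences over the 53 genes were 0.43 in both. Each of these 3 calls was lost in 12 of 20 alternatives, among them 8 in which 1 library was left out. The response under siATF6 did not pass against siControl for any member (edgeR; 0% of all genes passed, 0 members at an unadjusted p under 0.05, and 0 by DESeq2), with a median difference of 0.01.

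At 6 h, with all replicates as labelled, no member passed edgeR's test between 0 mM and 25 mM glucose in any siRNA, nor did any other gene (0% of all genes passed). At an unadjusted p under 0.05 there was 1 member in siControl, higher, 4 in siATF4 and 0 in siATF6, against 0.841%, 5.38% and 0.909% of all genes, and DESeq2 called 0 in each. Replicate 2 ran opposite to replicates 1 and 3 in siControl and siATF6. Whether the glucose labels of these 4 libraries were exchanged was not tested, and they are used as labelled, which bears on the 6 h values and on the comparisons of 16 h with 6 h. Over the same 1896 genes, the 6 h ratios of replicate 2 correlated with the siControl change at 16 h at -0.685 in siControl and -0.643 in siATF6, against 0.570 to 0.688 for the other 6 h pairs. The members followed. In siControl the median log2 ratio of the 53 genes was -0.21 and -0.40 in replicates 1 and 3, with 43 and 45 genes lower, and 0.39 in replicate 2, with 48 higher. In siATF6 it was -0.22 and -0.27 against 0.40. In siATF4 the 2 usable pairs, replicate 2 included, gave -0.17 and -0.22.

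**Figure D4:**
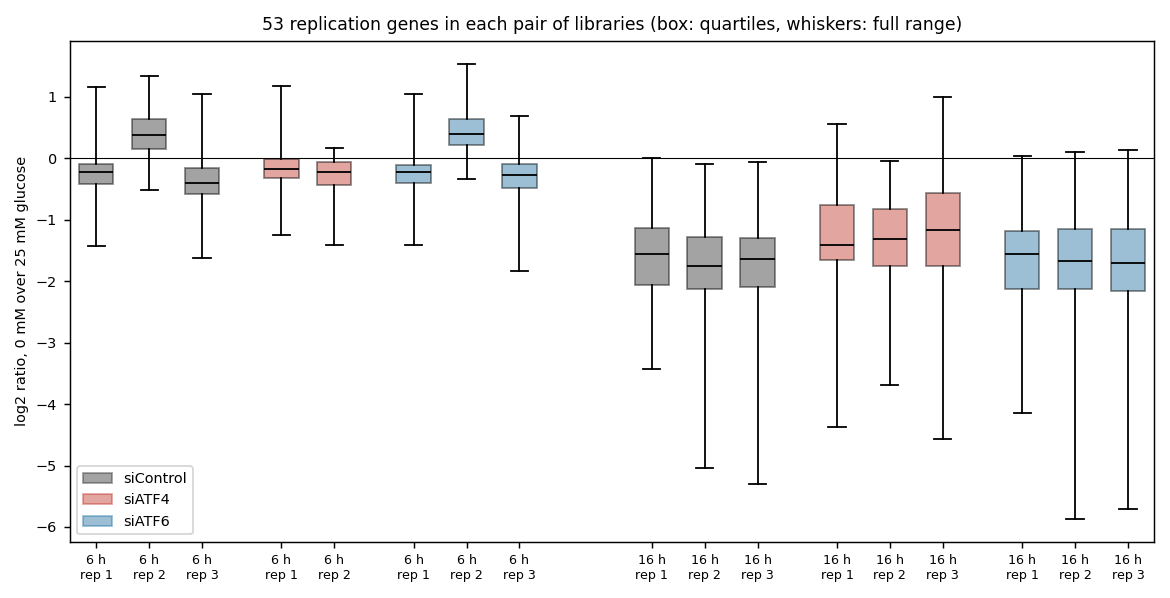
Distribution over the 53 genes of the log2 ratio of CPM in 0 mM over 25 mM glucose (y axis) in each of the 17 replicate pairs (x axis); boxes show quartiles and median and whiskers the full range. The pairs of 16 h have medians of -1.17 to -1.74, and replicate 2 of siControl and siATF6 at 6 h has medians of 0.39 and 0.40, opposite to the other pairs of 6 h.

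Fitted on the 29 libraries that remain without replicate 2 at 6 h in any siRNA, 6 members fell at 6 h in siControl and 1 rose (edgeR, adjusted over 19644 genes; 2.82% of all genes passed, 1.31% lower and 1.51% higher). E2F2 measured 17.1 and 20.6 CPM with glucose and 7.79 and 6.67 CPM without in replicates 1 and 3, and 6.96 and 17.0 CPM in replicate 2. It was the strongest of the 6 (log2 -1.38, SE 0.20, edgeR adjusted p = 0.000218), ahead of ORC1 (-0.75), GINS1 (-0.64), MCM5 (-0.63), MCM7 (-0.59) and CHAF1A (-0.51). The gene that rose was CDC6, with 94.0 and 84.1 CPM with glucose and 210 and 175 CPM without in replicates 1 and 3 (log2 1.11, SE 0.27, edgeR adjusted p = 0.024), and 130 against 91.1 CPM in replicate 2. Under siATF4 the CDC6 levels were 94.4 against 213 CPM in replicate 1 and 103 against 97.1 CPM in replicate 2, and under siATF6 they were 110 against 227 and 107 against 173 CPM in replicates 1 and 3 and 126 against 100.3 CPM in replicate 2. Its change did not pass under either of these (1.20 and 0.88, edgeR adjusted p = 0.0773 and 0.121). In siATF4, where 1 library without glucose then remains and is taken to vary like the others, E2F2 alone fell (-1.13, edgeR adjusted p = 0.0235; 1.15% of all genes passed). In siATF6 E2F2 (-1.20), GINS1 (-0.73) and RRM2 (-0.54) fell (edgeR; 1.59% of all genes passed). Leaving out these replicates was chosen with their values known, so these 6 h calls describe the remaining libraries.

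Between the siRNAs at 6 h no member passed edgeR's test in the 35 libraries. The shares of all genes that passed were 0.0158% for siATF4 in 25 mM, 0.042% for siATF4 in 0 mM, 0.909% for siATF6 in 25 mM and 0.699% for siATF6 in 0 mM. At an unadjusted p under 0.05 the members numbered 18, 6, 11 and 13 in that order, all higher, against 1.56%, 2.25%, 4.18% and 4.62% of all genes higher. These counts depended on replicate 2 at 6 h. With the 29 libraries, without that replicate, siATF4 in 25 mM had 1 such member, and its median log2 fold change went from 0.29 to 0.11. For siATF6 the 29 libraries gave 6 in 25 mM and 10 in 0 mM, all higher. The shares of all genes for these smaller counts are not given here. DESeq2 called 0, 0, 1 and 2 members, and its shares of all genes are not given here.

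Time was compared in siControl. In 25 mM glucose no member differed between 16 h and 6 h by edgeR, where 0.273% of all genes passed. At an unadjusted p under 0.05 there were 16 members, all higher at 16 h, against 3.69% of all genes. With the 29 libraries there were 10 such members, all higher, and the share of all genes for that count is not given here. DESeq2 called 3 members, and its share of all genes is not given here. In 0 mM glucose 48 of the 53 were lower at 16 h than at 6 h (edgeR; 13.4% of all genes passed and 7.21% were lower), with a median log2 fold change of -1.34. FAM111B measured 5.76, 20.02 and 5.40 CPM at 6 h and 2.62, 0.585 and 0.463 CPM at 16 h, both without glucose. Every 16 h library was below every 6 h library. The log2 fold change was -3.07, and -2.18 with the 29 libraries, without replicate 2 at 6 h (edgeR adjusted p = 0.00955). E2F2 (-2.31) and MCM10 (-2.07) were next. CDC6 fell as well, from 210, 91.1 and 175 CPM at 6 h to 113, 59.9 and 60.6 CPM at 16 h, with overlap (log2 -1.03, edgeR adjusted p = 0.0235). The genes that did not pass were CCNE1 (-0.39), CCNE2 (-0.64), GINS3 (-0.37), RFC1 (-0.14) and POLD2 (-0.08). The deprivation response was more negative at 16 h than at 6 h for 46 of the 53 genes, as a test of the difference itself (edgeR; 8.62% of all genes passed and 4.53% were lower; median -1.60). With the 29 libraries the counts were 46 for time in 0 mM (9.49% of all genes passed) and 45 for the difference in response (4.5% of all genes passed the latter), so both were nearly as large without replicate 2 at 6 h. With all 36 libraries in 1 fit they were 5 and 3, where 0.395% and 0.133% of all genes passed.

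**Figure D5:**
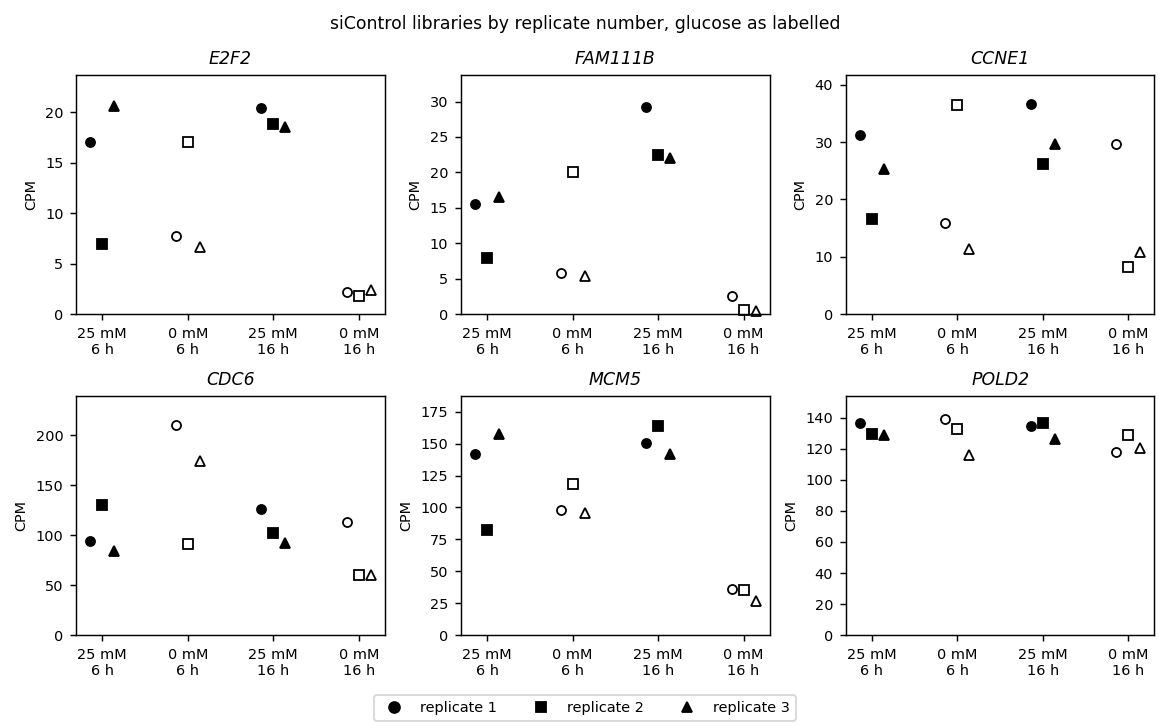
CPM (y axis, from 0) of E2F2, FAM111B, CCNE1, CDC6, MCM5 and POLD2 in each siControl library at 6 h and 16 h with 25 mM or 0 mM glucose (x axis), with the replicate number as symbol. Replicate 2 at 6 h lies opposite to replicates 1 and 3 in E2F2 (6.96 with and 17.0 CPM without glucose), while POLD2 stays between 116 and 139 CPM in all 12 libraries.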

How the data were processed

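Expected counts per gene from RSEM, with gene lengths, were deposited by the authors as 1 table; reads had been trimmed with fastp and aligned with STAR to GRCh38, per the submitters' processing notes (annotation release: not given in the sources used here). Expected counts were rounded to whole numbers. Genes were kept by edgeR's filterByExpr (minimum count 10, minimum total 15), scaled by TMM and tested with edgeR 4.0.16 (robust quasi-likelihood test, R 4.3.3), with Benjamini-Hochberg adjustment over all genes tested and a threshold of 0.05. The 18 libraries of 16 h were fitted together for the 16 h comparisons, and 35 libraries for the 6 h and time comparisons. The total of 1 library was far below the rest. Over 34 pairs of libraries of the same group, the mean chi-square per gene was 9.07 or more. Libraries of a group thus differed by more than counting noise alone. CPM are TMM-scaled, ratios of single pairs used an offset of 0.1 CPM, and TPM were computed from the counts and the deposited effective lengths. Recovery of known fold changes was tested on simulated data. DESeq2 1.42.0, another scaling, no filter, blocks, other sets of libraries and leaving out each library were tried as alternatives.

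The labels number the replicates, and each transfected culture was plated in both glucose conditions. Deviations of same-numbered libraries with and without glucose at 16 h correlated at 0.55, 0.29 and 0.34 in siControl. They correlated at 0.40, 0.22 and 0.17 in siATF6 and at 0.60, -0.41 and -0.10 in siATF4. Over all groups, same-numbered libraries had medians of 0.54, 0.22 and 0.31 for numbers 1, 2 and 3. These values cannot tell a shared transfection from a shared replicate number, so whether the numbers pair the wells was not settled. The transfection block took same-numbered wells of 1 siRNA and time as 1 culture.

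The 53 members and the further lists were chosen with earlier results of these data known. Any of the 53 could be named with its role; values per library are given for the member with the largest change in each role, MCM2 to MCM7, PCNA, RRM2, TYMS, E2F1, the cyclins E, and members that went against most others. TK1, GINS2, FEN1, RECQL4 and CDC6 at 16 h, and the leading genes of the further lists, were picked after their values were seen. Some genes of the further lists are not reported here.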

Additional observations from a re-analysis of the deposited data

Results flagged for a closer look

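A pair of genes differed between siRNAs in their response to 16 h without glucose, by a test of the difference itself. For RECQL4 the log2 response under siATF4 was higher than under siControl by 0.8303 and higher than under siATF6 by 0.7859, and for RRM2 it was higher than under siATF6 by 0.8337. Each of these calls was lost in 8 of the fits that left out 1 library. Against siControl, 24 of the 53 members had an unadjusted p under 0.05 in edgeR's test of the same difference, all in the same direction, against 4.92% of all genes in that direction. The response of siControl cells differed between 16 h and 6 h for 46 of the 53 members, all more negative at 16 h, against 4.53% of all genes in that direction. This count was far smaller with all 36 libraries in 1 fit, as given above.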

How the results depend on the processing

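Counts are members past an adjusted p of 0.05. Where no share of all genes is given here or above, a count does not show whether members moved apart from other genes. With the replicate number as a block, the deprivation counts at 16 h were 50 in siControl, 49 in siATF6 and 51 in siATF4. At 16 h, 14 of 18 libraries correlated best with a library of their own number. This block also gave 1 for siATF6 in 25 mM and 7 in 0 mM, 2 and 5 for the response under siATF4 against siControl and siATF6, and 3 for 16 h against 6 h in 25 mM. It moved no other count by over 1.5 times. A block for the transfection, no filter on low counts, or only the libraries compared gave 0 for both of these differences in response, and the last gave 0 for siATF4 in 0 mM and 1 for siATF6 in 25 mM at 16 h. DESeq2 gave 7 for siATF6 in 0 mM, 10 and 8 for the differences in response, 1 and 2 for siATF6 at 6 h in 25 and 0 mM, and 3 for time in 25 mM. All 36 libraries in 1 fit gave 16, 9 and 18 for deprivation at 16 h in siControl, siATF4 and siATF6, 5 for time in 0 mM, 3 for its difference in response, and 0 for siATF4 and siATF6 in 0 mM and for both differences in response. The 29 libraries gave 7, 1 and 3 for deprivation at 6 h, 7 for siATF6 in 0 mM at 16 h, and 3 and 5 for the differences in response. The cause of these differences between settings was not tested. Leaving out 1 library gave 47 to 50, 46 to 48 and 47 to 49 for deprivation at 16 h in siControl, siATF4 and siATF6, 10 to 18 for siATF4 and 0 to 4 for siATF6 in 0 mM, 0 to 2 and 0 to 3 for the response under siATF4 against siControl and siATF6, 44 to 47 for time in 0 mM and 45 to 48 for its difference in response. Median-of-ratios scaling moved no count by over 1.5 times. Over single members and alternatives, 2292 values stayed on their side of the threshold, 231 were no longer past it, 23 passed newly and 0 reversed. FAM111B, E2F2 and CCNE2 had the lowest mean levels in siControl without glucose at 16 h, at 1.22, 2.12 and 2.53 CPM. The part of depth in their spread was not tested.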
